A study of Homo sapiens with 26 samples.

Results

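The genes described here are 10 members of the Wnt signalling pathway: the receptors and coreceptors ROR2, FZD6, LGR4 and LRP6, the ligands WNT5A, WNT7A and WNT7B, the feedback gene AXIN2, and the cytoplasmic effectors DAAM1 and DAAM2. They were taken by gene name from a count table of 58735 genes. The list was drawn up with earlier results of these data known and was in part chosen by the glucose response of CF cells, in which ROR2 had stood out for its low level in high glucose. The RNA came from 16HBE cells, an established human line of bronchial epithelium. The study asked what high glucose does to the airway barrier with and without a cystic fibrosis mutation. The 26 libraries fell into 5 groups. CF cells (line 16HBEge, labelled DeltaF508 CFTR) were kept for 7 days in high glucose (17.5 mM, 6 libraries) or in normal glucose (5.5 mM, 6 libraries). WT cells (line 16HBE14o-, labelled WT CFTR) were kept likewise in high glucose (5 libraries) or in normal glucose (6 libraries). The fifth group held 3 libraries of WT cells labelled as normal glucose and not polarized. No number of days in culture is recorded for this group. In comparisons with it, polarization and time in culture cannot be told apart. All groups were seeded at 250000 cells per Transwell with 2 Transwells pooled per library, per the labels. Each genotype was represented by a single cell line, so genotype and line cannot be told apart.

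Wnt proteins are secreted ligands that bind Frizzled receptors. Together with the coreceptors LRP5 and LRP6 they stabilise beta-catenin, which switches on target genes such as AXIN2, and LGR receptors strengthen this branch when they bind R-spondins. Without LRP coreceptors, ROR receptors and WNT5A act through Dishevelled and the formins DAAM1 and DAAM2 on the actin cytoskeleton and on planar cell polarity.

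The libraries held between 14658319 and 20413839 counts. Levels are CPM, counts scaled to library size with edgeR's TMM factors. The limit that a count of 0 allows, 3 counts, corresponded to 0.146 to 0.212 CPM per library (counting error only). Nothing in the labels ties the libraries of a group to separate cultures, and p-values then measure only the spread between these samples. Markers of airway epithelium (10 genes, CDH1 and EPCAM among them) were present in every library, at summed levels that differed between groups. In high glucose the sums ran from 6860 to 8020 CPM in CF and 5940 to 6550 CPM in WT cells. In normal glucose they ran from 7300 to 7900 CPM in CF and 6310 to 7360 CPM in WT cells. Not polarized WT cells had 6870 to 6930 CPM. Of the basal cell markers among the 10 genes, KRT5 averaged between 25.6 and 80.2 CPM, KRT14 between 0.795 and 4.25 CPM and TP63 between 0.353 and 0.591 CPM in the groups. Libraries numbered 1 to 3 and those numbered 4 to 6 differed in 49.6% of 16338 genes tested, in a fit with the number set as a term beside the group. The labels do not call these sets batches, and within-set values are given where they bear on a result. The not polarized libraries are titled Standard and were placed with libraries 1 to 3 by their numbers alone. The labels do not say that they belong with that set.

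Promoter windows from RefSeq (GRCh38.p14), which run from 250 bases before to 50 bases after the annotated start, were available for ROR2, WNT7A, WNT5A, LGR4, DAAM1 and DAAM2. Those of ROR2, WNT7A and DAAM2 are shown because ROR2 was lower and WNT7A higher in every CF library in high glucose than in every one in normal glucose, and DAAM2 was near 0 in WT cells. The DAAM2 window is the upstream one of 2. Capitals mark GC boxes (GGGCGG, or CCGCCC on the other strand).
ROR2, chr9:91950179-91950478, minus strand: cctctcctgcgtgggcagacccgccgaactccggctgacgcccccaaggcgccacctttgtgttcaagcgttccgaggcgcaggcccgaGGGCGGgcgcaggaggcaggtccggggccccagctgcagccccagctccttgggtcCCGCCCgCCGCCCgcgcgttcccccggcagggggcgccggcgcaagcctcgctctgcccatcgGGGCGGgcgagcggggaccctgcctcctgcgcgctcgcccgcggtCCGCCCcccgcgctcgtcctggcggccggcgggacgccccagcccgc
WNT7A, chr3:13880022-13880321, minus strand: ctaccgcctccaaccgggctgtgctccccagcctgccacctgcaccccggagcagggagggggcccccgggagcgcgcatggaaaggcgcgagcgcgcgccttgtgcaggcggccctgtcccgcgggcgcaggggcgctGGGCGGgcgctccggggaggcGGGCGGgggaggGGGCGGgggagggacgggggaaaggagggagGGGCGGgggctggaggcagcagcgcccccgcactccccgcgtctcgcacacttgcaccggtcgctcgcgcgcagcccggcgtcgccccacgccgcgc
DAAM2, chr6:39792126-39792425, plus strand: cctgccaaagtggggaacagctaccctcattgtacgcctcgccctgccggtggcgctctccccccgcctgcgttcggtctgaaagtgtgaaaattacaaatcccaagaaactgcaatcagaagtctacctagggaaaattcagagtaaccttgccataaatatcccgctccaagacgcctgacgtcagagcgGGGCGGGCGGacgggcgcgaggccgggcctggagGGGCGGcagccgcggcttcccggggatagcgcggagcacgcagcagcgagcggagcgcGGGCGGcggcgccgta
The GC content was 79.7% in the ROR2 window, 80.3% in the WNT7A window and 64.3% in the DAAM2 window, against a median of 58.7% over 35116 windows. The ROR2 window held 5 GC boxes, and the WNT7A and DAAM2 windows 4 each (overlapping matches counted), and 45.0% of all windows held at least 1. Among windows not shown, that of LGR4, whose CF libraries also separated by glucose, had 61.3% GC and 0 GC boxes. The second DAAM2 window had 53.0% GC and 1 GC box. The 2 windows of DAAM1 held 3 and 0 GC boxes, and those of WNT5A 1 and 0. The E-box CACGTG, the hypoxia core ACGTG (which every such E-box contains) and the TCF/LEF sequence CTTTGAT, searched on both strands, had 0 matches in these windows. They occur in 7.26%, 21.4% and 2.62% of all windows, in that order.

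ROR2 (ENSG00000169071, hg38 chromosome 9, 91563091 to 91950162, minus strand) is a receptor tyrosine kinase for WNT5A, and its group means spanned 11.9 to 43.5 CPM. It stood at 11.5, 9.22, 12.4, 14.0, 12.5 and 12.0 CPM in CF cells in high glucose, against 22.5, 29.2, 24.1, 28.4, 28.0 and 28.9 CPM in CF cells in normal glucose. It stood at 32.3, 27.6, 31.1, 25.6 and 26.4 CPM in WT cells in high glucose, against 44.9, 42.6, 44.4, 46.1, 39.3 and 43.8 CPM in WT cells in normal glucose. In both lines every high glucose library lay below every normal glucose library. In these bulk libraries, fewer cells that express a gene and less of its RNA per cell cannot be told apart.

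**Figure D1:**
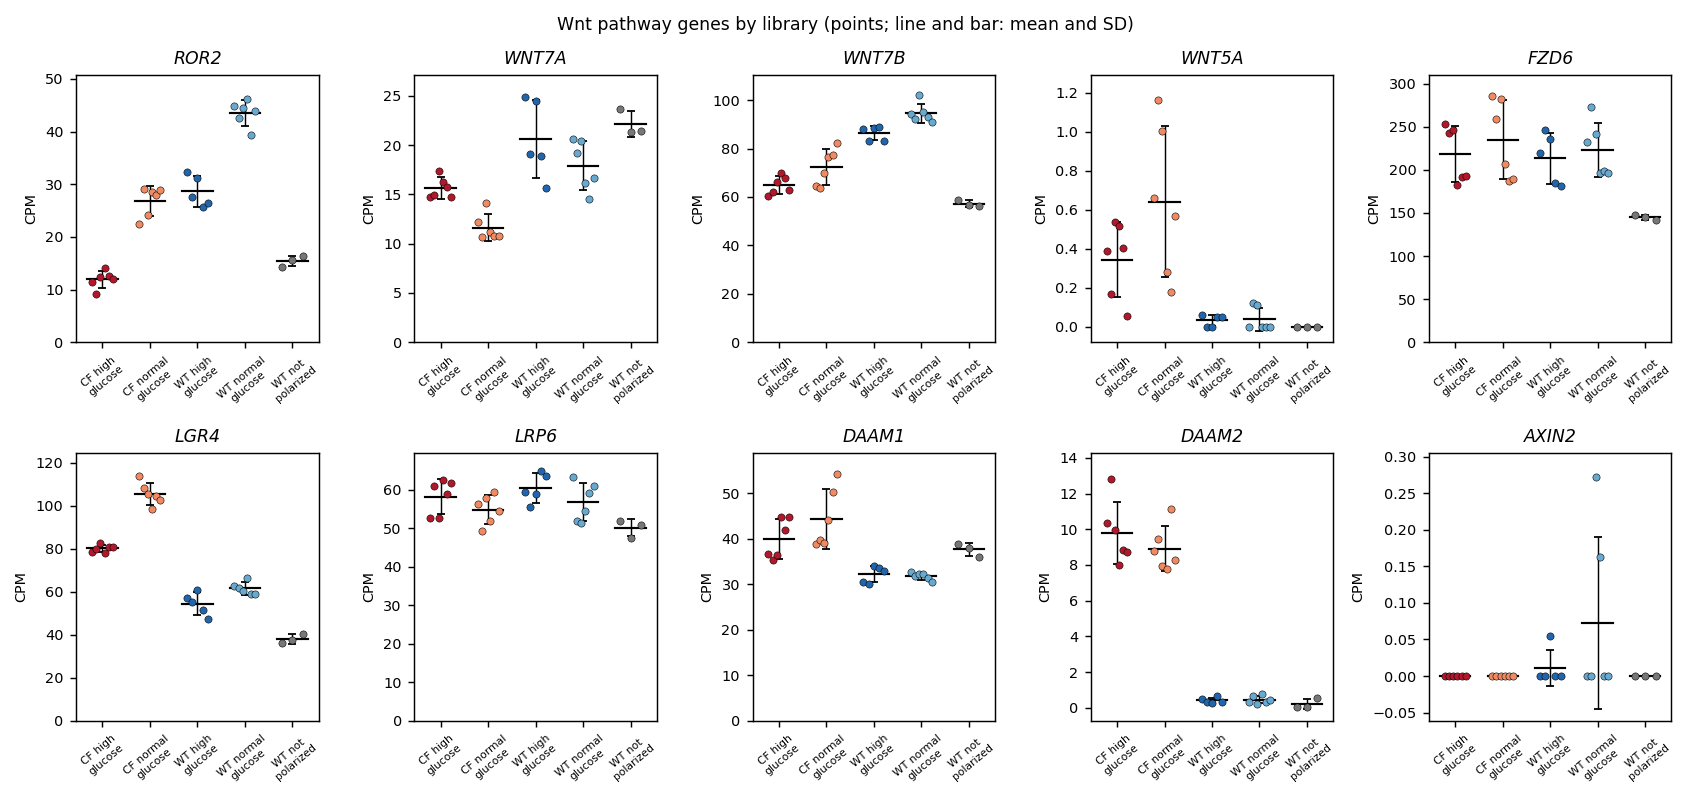
Level in CPM (y axis, linear) of the 10 Wnt pathway genes in each library (points) by group (x axis), with the group mean (horizontal line) and SD (bar). ROR2 was lowest in CF cells in high glucose (9.22 to 14.0 CPM) and highest in WT cells in normal glucose (39.3 to 46.1 CPM), and DAAM2 was between 7.79 and 12.8 CPM in CF cells and at most 0.762 CPM in WT cells.

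The means for ROR2 were 11.9 ± 1.57 CPM in CF cells in high glucose and 26.8 ± 2.81 CPM in CF cells in normal glucose (SD, n = 6 each). The fitted log2 fold change was -1.17 ± 0.086 (SE). It is given without a test, because this contrast was known when the genes were chosen. In WT cells the means were 28.6 ± 2.96 CPM in high glucose (SD, n = 5) and 43.5 ± 2.38 CPM in normal glucose (SD, n = 6). Here ROR2 fell by 0.60 ± 0.085 (SE) on the log2 scale (edgeR quasi-likelihood test, adjusted p = 0.000156 over all genes). The log2 fold change in WT cells was -0.53 in libraries 1 to 3 alone and -0.71 in libraries 4 to 6 alone, and in CF cells it was -1.21 and -1.15. The difference between the responses, CF minus WT, was -0.57 ± 0.12 (SE) on the log2 scale, with -0.68 in libraries 1 to 3 alone and -0.44 in libraries 4 to 6 alone. It is given without a test for the same reason.

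Between the lines, ROR2 was 0.617 times as high in CF as in WT cells in normal glucose (log2 fold change -0.70 ± 0.081 SE, adjusted p = 2.25e-07 by edgeR). In high glucose it was 0.417 times as high in CF as in WT cells (log2 fold change -1.26 ± 0.089 SE), given without a test, because its low level in these CF libraries was known when it was chosen. The log2 fold change in high glucose was -1.47 in libraries 1 to 3 alone and -1.04 in libraries 4 to 6 alone. In normal glucose it was -0.79 and -0.60. Comparisons of the lines share libraries with the comparisons of glucose, so these values and those above are not independent. Line tests of ROR2 and of the other genes use CF libraries of the contrast that was known when the genes were chosen, and carry that limit. In WT cells in normal glucose, polarized cultures exceeded those labelled not polarized, which had 14.4, 15.6 and 16.3 CPM, by 2.86-fold (log2 fold change 1.51 ± 0.082 SE, adjusted p = 4.13e-09 by edgeR). The order of the groups was therefore WT normal glucose, then WT high glucose and CF normal glucose, whose libraries overlapped, then WT not polarized, then CF high glucose. The highest CF high glucose library (14.0 CPM) and the lowest not polarized library (14.4 CPM) lay next to each other.

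**Figure D2:**
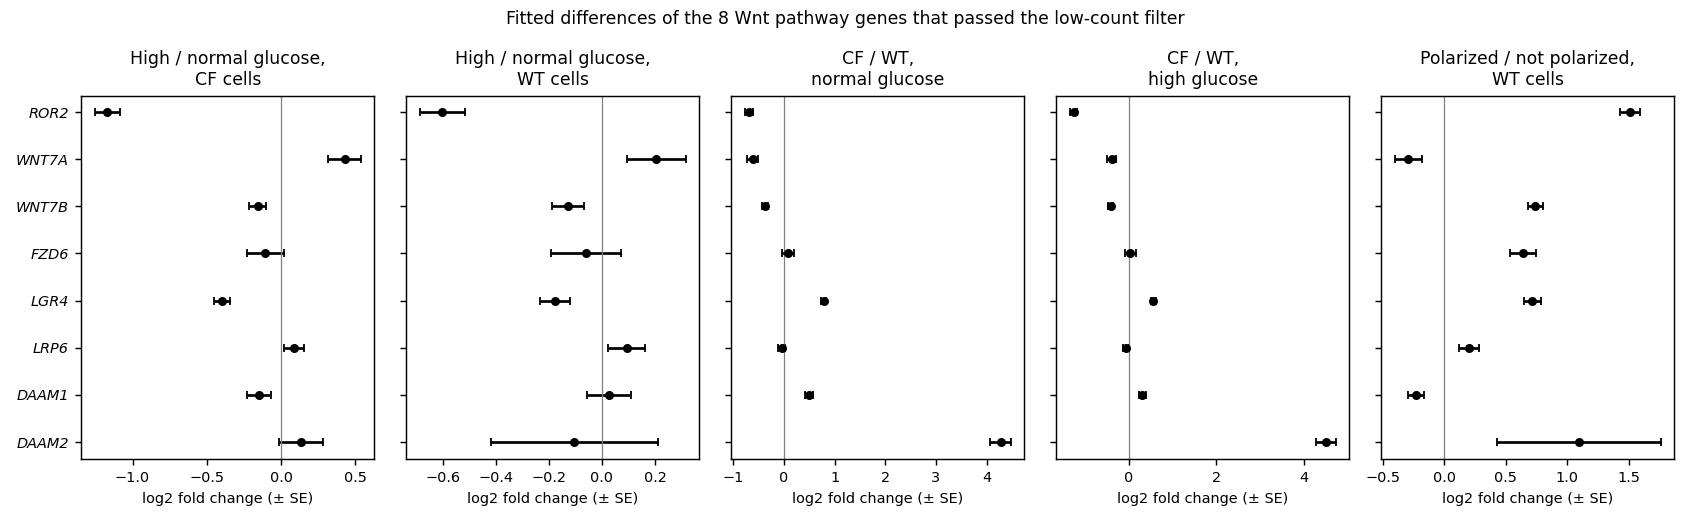
Fitted log2 fold change (x axis, differing in scale between panels; bars are SE) of the 8 Wnt pathway genes that passed the low-count filter (y axis) in 5 comparisons. In both panels of high over normal glucose ROR2 lies farthest from 0, at -1.17 in CF and -0.60 in WT cells, and in both panels of CF over WT cells DAAM2 lies farthest, at 4.28 and 4.52.

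Of the 10 genes, 8 passed the filter on low counts. In the fit of the glucose groups DAAM2 passed through its CF libraries alone. In the fit of polarized and not polarized WT cells it passed at 4 to 14 and 1 to 9 counts per library. In WT cells, 1 of the 8, ROR2, was past the threshold of 0.05 for high against normal glucose, where 2.95% of all genes tested were. The WT libraries did not overlap for ROR2 and WNT7B, 2 of the 8, where 4.11% of all genes did not. In CF cells, libraries of the glucose groups did not overlap for ROR2, WNT7A and LGR4, 3 of the 8, where 4.68% of all genes did not. Nothing is read from this last count, because the genes were chosen with that contrast known. The median log2 fold change of the 8 genes was -0.128 in CF cells and -0.0823 in WT cells, against -4.35e-05 and 0.000511 over all genes.

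FZD6 (ENSG00000164930, chromosome 8, 103298433 to 103332866) encodes a Frizzled receptor best known for planar cell polarity. Per length it was the most abundant of the 10 genes in WT cells in normal glucose, at a mean of 54.3 FPKM against 7.40 FPKM for ROR2. It had 182 to 253 CPM with a median of 218 CPM in CF cells in high glucose, and 187 to 286 CPM with a median of 233 CPM in CF cells in normal glucose. It had 181 to 246 CPM with a median of 219 CPM in WT cells in high glucose, and 197 to 273 CPM with a median of 215 CPM in WT cells in normal glucose. In each group FZD6 was lower in the libraries numbered 4 to 6 than in those numbered 1 to 3, for example 189 ± 5.72 against 248 ± 5.08 CPM in CF cells in high glucose (SD, n = 3 each). The log2 difference between the sets was -0.40 (adjusted p = 9.03e-12 by edgeR), larger in size than the glucose and line differences of this gene. Its log2 fold change for high glucose was -0.11 ± 0.13 (SE) in CF and -0.06 ± 0.13 (SE) in WT cells, and for CF over WT it was 0.08 ± 0.13 in normal and 0.03 ± 0.13 in high glucose. In WT cells it was 1.56-fold higher in polarized than in not polarized cultures (log2 fold change 0.64 ± 0.10 SE, adjusted p = 0.00016 by edgeR), where the not polarized libraries held 141 to 148 CPM. That log2 fold change was 0.80 with the set of numbers as a term and 0.79 in libraries 1 to 3 alone. FZD6 shares 3.39% of its exon bases with BAALC-AS1 on the opposite strand, and whether counting used strand is not given in the sources used here.

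**Figure D3:**
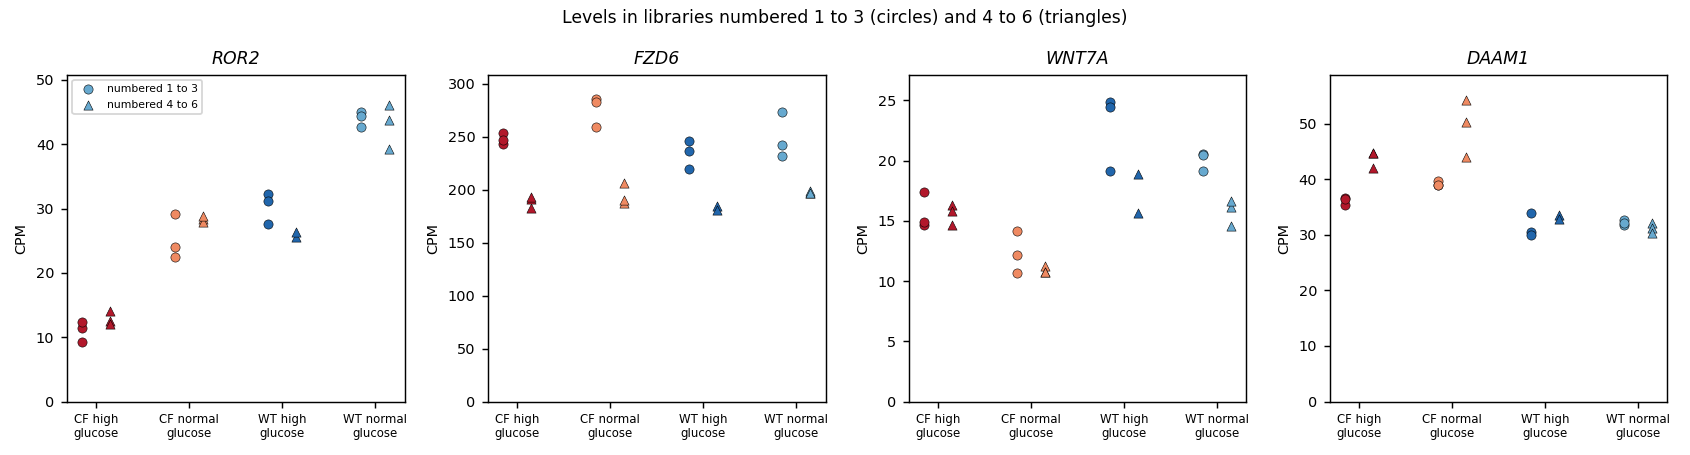
Level in CPM (y axis) of ROR2, FZD6, WNT7A and DAAM1 in the 4 glucose groups (x axis), with libraries numbered 1 to 3 as circles and those numbered 4 to 6 as triangles. FZD6 was lower in libraries 4 to 6 in all 4 groups, DAAM1 was higher in libraries 4 to 6 in both CF groups, and the sets of ROR2 differed by a log2 value of 0.03.

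LGR4 (ENSG00000205213, chromosome 11, 27365961 to 27472775) encodes a receptor for R-spondins and separated the lines in every library. It had 78.1 to 82.5 CPM with a median of 80.4 CPM in CF cells in high glucose, and 98.3 to 114 CPM with a median of 105 CPM in CF cells in normal glucose. In WT cells it had 47.0 to 60.9 CPM in high glucose and 58.7 to 66.4 CPM in normal glucose, so the highest WT library lay below the lowest CF library. CF cells exceeded WT cells by 1.72-fold in normal glucose (log2 fold change 0.78 ± 0.054 SE). In high glucose CF cells exceeded WT cells by 1.48-fold (log2 fold change 0.56 ± 0.058 SE). Both line values are given without a test, because LGR4 separated the CF groups in the glucose contrast known when the genes were chosen. In CF cells the high glucose libraries lay below the normal glucose libraries without overlap, with a log2 fold change of -0.40 ± 0.054 (SE), given without a test. In WT cells the log2 fold change was -0.18 ± 0.057 (SE) and did not pass the threshold (adjusted p = 0.1 by edgeR), but it did with DESeq2 (adjusted p = 0.0399) and with the set of numbers as a term (edgeR adjusted p = 0.0174). It was -0.09 in libraries 1 to 3 alone (adjusted p = 0.622 by edgeR) and -0.30 in libraries 4 to 6 alone (adjusted p = 0.0114 by edgeR). Polarized WT cells exceeded not polarized ones, at 35.9 to 40.2 CPM, by 1.64-fold (log2 fold change 0.71 ± 0.070 SE, adjusted p = 1.62e-06 by edgeR). Of the R-spondin ligands, RSPO2 and RSPO3 had 0 counts in all 26 libraries and RSPO1 and RSPO4 had 0 to 3 counts per library.

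LRP6 (ENSG00000070018, chromosome 12, 12116025 to 12267012), a coreceptor of the beta-catenin branch, varied little between groups. Its means were 58.2 ± 4.50 CPM in CF cells in high glucose and 54.8 ± 3.80 CPM in CF cells in normal glucose (SD, n = 6 each). They were 60.4 ± 3.81 CPM in WT cells in high glucose (n = 5) and 56.8 ± 4.98 CPM in WT cells in normal glucose (n = 6). The log2 fold change for high glucose was 0.09 ± 0.067 (SE) in CF and 0.09 ± 0.070 (SE) in WT cells, and for CF over WT it was -0.05 ± 0.067 in normal and -0.06 ± 0.070 in high glucose. The groups overlapped in all 4 comparisons. Polarized over not polarized cultures gave a log2 fold change of 0.20 ± 0.081 (SE, adjusted p = 0.0571 by edgeR), which passed without WT normal glucose library 2 (0.0254) or 3 (0.0313) and under a stricter low-count filter (0.0482). LRP5, the other coreceptor, was higher in CF than in WT cells in high glucose (log2 fold change 0.21 ± 0.056 SE). It is named here for its kinship with LRP6, after its values were seen, and so is given without a test.

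WNT5A (ENSG00000114251, chromosome 3, 55465715 to 55490539), the best known ligand of ROR2, was at the edge of detection and failed the filter on low counts. Its libraries held 6, 3, 9, 9, 6 and 1 counts in CF cells in high glucose and 10, 19, 17, 4, 3 and 8 counts in CF cells in normal glucose. They held 1, 0, 0, 1 and 1 counts in WT cells in high glucose, 0, 2, 2, 0, 0 and 0 counts in WT cells in normal glucose, and 0 counts in each of the 3 not polarized libraries. WNT5A reads were therefore seen in each of the 12 CF libraries and, at 1 or 2 counts, in 5 of the 14 WT libraries. In normal glucose every CF library had more WNT5A than every WT library, in CPM (exact two-sided permutation test, p = 0.00216, the smallest that 6 against 6 libraries can give, 0.00433 adjusted over 2 tests). In high glucose the groups overlapped at the lowest CF library (exact two-sided permutation test, p = 0.0152, 0.0152 adjusted). Levels this low do not resolve a fold change.

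WNT7A (ENSG00000154764, chromosome 3, 13816258 to 13880121), a ligand expressed by many epithelia, stood at 14.7, 14.9, 17.4, 16.3, 15.8 and 14.7 CPM in CF cells in high glucose, against 12.2, 10.6, 14.2, 11.2, 10.7 and 10.8 CPM in CF cells in normal glucose. All 6 high glucose libraries lay above all 6 normal glucose libraries, opposite to ROR2 and LGR4, with a log2 fold change of 0.43 ± 0.11 (SE), given without a test. WT cells had 24.9, 19.1, 24.5, 18.9 and 15.6 CPM in high glucose, against 20.6, 19.2, 20.4, 16.2, 14.6 and 16.6 CPM in normal glucose. Those groups overlapped, and the log2 fold change of 0.20 ± 0.11 (SE) did not pass the threshold (adjusted p = 0.404 by edgeR). CF cells were lower than WT cells in normal glucose without overlap (log2 fold change -0.62 ± 0.11 SE). That value too is given without a test, because these CF libraries were the lower side of the glucose contrast known beforehand.

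In high glucose WNT7A was also lower in CF than in WT cells (log2 fold change -0.40 ± 0.11 SE), but the groups overlapped. This is given without a test, because WNT7A separated the CF groups in the glucose contrast known when the genes were chosen. Leaving out each library, the value ran from -0.482 to -0.321. WNT7A was lower in libraries 4 to 6 than in 1 to 3 (log2 difference -0.24, adjusted p = 0.00178 by edgeR). The line difference in high glucose was -0.55 in libraries 1 to 3 alone and -0.17 in libraries 4 to 6 alone. Not polarized WT cells had 23.7, 21.3 and 21.5 CPM, and the polarized libraries were lower by 0.29 ± 0.11 (SE) on the log2 scale (adjusted p = 0.0416 by edgeR). That call was lost in libraries 1 to 3 alone (log2 fold change -0.14, adjusted p = 0.187 by edgeR), with the set of numbers as a term (-0.13, adjusted p = 0.253 by edgeR), without WT normal glucose library 4, 5 or 6, and without any of the 3 not polarized libraries (edgeR adjusted p from 0.066 to 0.159).

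WNT7B (ENSG00000188064, chromosome 22, 45920362 to 45977129), its close relative, was the most abundant per length of the 3 ligands, at 18.5 FPKM in WT cells in normal glucose, where WNT7A had 3.87 FPKM. It had 60.5 to 69.8 CPM with a median of 64.7 CPM in CF cells in high glucose and 63.9 to 82.1 CPM with a median of 73.2 CPM in CF cells in normal glucose. It had 83.1 to 89.1 CPM in WT cells in high glucose and 91.2 to 102 CPM in WT cells in normal glucose. All CF libraries lay below all WT libraries of the glucose groups. The difference passed the threshold in normal glucose (log2 fold change -0.38 ± 0.057 SE, adjusted p = 8.94e-06 by edgeR) and in high glucose (log2 fold change -0.41 ± 0.060 SE, adjusted p = 7.3e-06 by edgeR). In normal glucose it was -0.53 in libraries 1 to 3 alone and -0.24 in libraries 4 to 6 alone (adjusted p = 1.6e-06 and 0.00232 by edgeR). With glucose the log2 fold change was -0.16 ± 0.057 (SE) in CF cells and -0.13 ± 0.060 (SE, adjusted p = 0.302 by edgeR) in WT cells, where the libraries did not overlap. Polarized WT cells exceeded not polarized ones (56.2 to 58.7 CPM) by 1.67-fold (log2 fold change 0.74 ± 0.061 SE, adjusted p = 2.99e-07 by edgeR), so WNT7A and WNT7B differed in opposite directions between these cultures.

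AXIN2 (ENSG00000168646, chromosome 17, 65528563 to 65561647), the feedback inhibitor commonly read as a target of beta-catenin, had 0 counts in all 12 CF libraries and in the 3 not polarized libraries. It had 1 count in 1 of 5 WT high glucose libraries, and 5 and 3 counts in 2 of 6 WT normal glucose libraries. The data therefore set only an upper limit for this gene in most libraries and resolve no difference. The target SP5 had 0 to 2 counts per library as well, and NKD1, another feedback inhibitor, averaged between 0.778 and 1.14 CPM in the 5 groups. APCDD1, an inhibitor that is itself a Wnt target, was well expressed and is described with the other pathway genes.

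DAAM2 (ENSG00000146122, chromosome 6, 39792298 to 39904877) and DAAM1 (ENSG00000100592, chromosome 14, 59188646 to 59371405) encode formins that link Dishevelled to actin. DAAM2 had 132 to 231 counts per library in CF cells in high glucose and 111 to 189 counts in CF cells in normal glucose. It had 5 to 13 counts in WT cells in high glucose, 4 to 14 counts in WT cells in normal glucose and 1 to 9 counts in not polarized WT cells. Every CF library held more DAAM2 than every WT library. The mean was 9.80 ± 1.72 CPM in CF and 0.417 ± 0.157 CPM in WT cells in high glucose (SD, n = 6 and 5), with a fitted log2 fold change of 4.52. It was 8.91 ± 1.26 CPM in CF and 0.456 ± 0.211 CPM in WT cells in normal glucose (SD, n = 6 each), with a fitted log2 fold change of 4.28. Both are given without a test, because in this fit the gene passed the low-count filter only through the CF libraries, where it is high. Within CF cells the glucose groups overlapped. Polarized over not polarized WT cells gave a log2 fold change of 1.10 ± 0.67 (SE, adjusted p = 0.187 by edgeR). Without not polarized library 3 it was 2.92 (adjusted p = 0.0136 by edgeR), so at these counts it hangs on 1 library. Of the DAAM2 exon bases, 24.4% are shared with AL590999.1 and 5.67% with MOCS1, both on the opposite strand. AL590999.1 had 0 to 5 counts per library. MOCS1 had 36 to 61 counts in CF cells in high glucose and 20 to 55 in CF cells in normal glucose, against 16 to 30 in WT cells in high glucose and 11 to 34 in WT cells in normal glucose. It was highest in not polarized WT cells, at 56 to 79 counts, where DAAM2 had 1 to 9.

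DAAM1 had 35.4 to 44.8 CPM in CF cells in high glucose and 38.9 to 54.3 CPM in CF cells in normal glucose, against 30.1 to 33.9 CPM in WT cells in high glucose and 30.4 to 32.6 CPM in WT cells in normal glucose. Every CF library lay above every WT library of the glucose groups. The line difference was 1.40-fold in normal glucose (log2 fold change 0.48 ± 0.079 SE, adjusted p = 3.26e-05 by edgeR) and 1.24-fold in high glucose (log2 fold change 0.31 ± 0.083 SE, adjusted p = 0.00776 by edgeR). It depended on the set of libraries. In normal glucose the log2 fold change was 0.29 in libraries 1 to 3 alone (adjusted p = 0.0076 by edgeR) and 0.66 in libraries 4 to 6 alone (adjusted p = 7.28e-09 by edgeR). In high glucose it was 0.19 in libraries 1 to 3 alone (adjusted p = 0.0912 by edgeR) and 0.38 in libraries 4 to 6 alone (adjusted p = 0.00093 by edgeR). In CF cells in normal glucose DAAM1 averaged 39.2 ± 0.385 CPM in libraries 1 to 3 and 49.6 ± 5.19 CPM in libraries 4 to 6 (SD, n = 3 each). Polarized WT cells were lower than not polarized ones, which had 36.0 to 38.9 CPM (log2 fold change -0.23 ± 0.066 SE, adjusted p = 0.00943 by edgeR), and the call was lost without not polarized library 1 (0.0534).

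For CF against WT cells, leaving out DAAM2, 5 of 7 tested genes passed the threshold in normal glucose, where 24.4% of all genes did, and 5 of 7 in high glucose, where 19.9% of all genes did. In both comparisons LGR4 and DAAM1 were higher and ROR2, WNT7A and WNT7B lower. The libraries of the lines did not overlap for these 5 genes in normal glucose (13.2% of all genes) and for 4 of them, all but WNT7A, in high glucose (14.1% of all genes). The CF libraries in these counts are those of the glucose contrast that was known when the genes were chosen. Nothing is therefore read from the counts in either medium. For polarized against not polarized WT cells, 6 of the 8 passed, 4 higher and 2 lower, where 50% of all 16105 genes tested did. The libraries did not overlap for the same 6 genes, where 46.6% of all genes did not. The median log2 fold change of the 8 genes in that comparison was 0.677, against 0.0236 over all genes. Other cell types were checked for the comparisons of lines and of polarization. Of 10 fibroblast or mesenchymal markers, DCN, LUM, COL3A1 and PDGFRA were at or near 0 in all groups. The summed level of the 10 ran from 20.6 to 31.9 CPM in CF cells in high glucose, 16.9 to 27.2 CPM in CF cells in normal glucose, 27.9 to 42.6 CPM in WT cells in high glucose, 27.5 to 44.4 CPM in WT cells in normal glucose and 14.0 to 15.5 CPM in not polarized WT cells. Most of it was COL1A1, which was lower in CF than in WT cells in normal glucose (log2 fold change -0.80, adjusted p = 0.000279 by edgeR) and higher in polarized than in not polarized cells (log2 fold change 1.42, adjusted p = 1.57e-06 by edgeR). With glucose it gave a log2 fold change of 0.20 in CF and -0.11 in WT cells (adjusted p = 0.504 and 0.834 by edgeR). COL1A2 went the other way between the lines, at a mean of 0.584 CPM in CF and 0.107 CPM in WT cells in normal glucose (log2 fold change 2.33). It is given without a test, because it passed the low-count filter only through the CF libraries, where it is high. The WT normal glucose libraries held 0 to 6 counts of it. TWIST1, which failed the low-count filter, also had more counts in CF cells. With high glucose it had 3 to 12 counts per CF library and 0 to 1 per WT library. With normal glucose it had 2 to 22 and 0 to 4, which overlapped. PDGFRB had a log2 fold change for CF over WT of 0.70 (adjusted p = 0.11 by edgeR) with high glucose. With normal glucose that value was 0.38 (adjusted p = 0.394 by edgeR), and neither passed. POSTN and TWIST2 were too low to be tested. Of 4 endothelial markers, PECAM1 averaged at most 0.123 CPM and VWF at most 0.812 CPM in any group, while CDH5 and KDR made up nearly all of a summed level of 43.3 to 49.8 CPM in CF cells in high glucose, 32.5 to 64.1 CPM in CF cells in normal glucose, 22.3 to 29.4 CPM in WT cells in high glucose, at most 25.3 CPM in WT cells in normal glucose and 44.8 to 48.8 CPM in not polarized WT cells. KDR was higher in CF than in WT cells in normal glucose (log2 fold change 1.45, adjusted p = 4.11e-05 by edgeR) and lower in polarized than in not polarized cells (log2 fold change -1.91, adjusted p = 4.66e-09 by edgeR). VWF was also lower in polarized cells (log2 fold change -1.56), with 2 to 11 counts per library, against 11 to 17 in not polarized cells. That value is given without a test, because VWF passed the low-count filter through the not polarized libraries, where it is high. CDH5 was higher in CF cells in normal glucose (log2 fold change 0.71, adjusted p = 6.76e-07 by edgeR). Of the basal markers, KRT5 was higher in CF cells in normal glucose (log2 fold change 0.72, adjusted p = 0.00106 by edgeR) and in high glucose (1.04, adjusted p = 4.24e-05 by edgeR), and KRT14 was lower in both (-1.29, adjusted p = 2.2e-05, and -1.34, adjusted p = 1.51e-05, by edgeR). Both were higher in polarized than in not polarized cells (log2 fold change 0.77, adjusted p = 4.86e-05, for KRT5 and 2.09, adjusted p = 5.11e-06, for KRT14, by edgeR). The 4 leukocyte markers summed to at most 1.03 CPM in any library. Of the epithelial markers, KRT19 was lower with high glucose in CF (log2 fold change -0.16, adjusted p = 0.0456 by edgeR) and WT cells (-0.30, adjusted p = 0.00191 by edgeR). So was CFTR in CF cells (-0.22, adjusted p = 0.0348 by edgeR). KRT19 and CDH1 were higher in CF than in WT cells in normal (0.37 and 0.28) and high glucose (0.51 and 0.26). Both were higher in polarized cells (0.42 and 0.38), where KRT18 was lower (-0.72). EPCAM and KRT8 passed in none. The part of these markers in the glucose, line and polarization differences was not tested.

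The other pathway genes were a list of 114 in 10 roles, of which 90 passed the low-count filter. This list too was drawn up with earlier results of these data known. Its counts and tests carry that limit in each comparison. In CF cells, 11 of the 90 passed the threshold with high glucose, where 8.41% of all genes did. Of these 7 rose (4.27% of all genes) and 4 fell (4.14% of all genes), and the list's median log2 fold change was 0.0202. The largest changes among genes of at least 1 CPM were rises. They were those of APCDD1 (log2 fold change 0.44 ± 0.055 SE) and of the Frizzled receptors FZD2 (0.42 ± 0.079 SE) and FZD5 (0.38 ± 0.11 SE). The secreted inhibitor SFRP1 (0.37 ± 0.093 SE), the Dickkopf receptor KREMEN2 (0.37 ± 0.080 SE) and the polarity protein VANGL1 (0.37 ± 0.064 SE) followed. FZD2 had 51.5 ± 3.42 CPM in high glucose and 38.4 ± 3.78 CPM in normal glucose in CF cells (SD, n = 6 each), with no overlap. The call on FZD5 was lost without any of 7 of the 12 CF libraries (edgeR adjusted p from 0.0518 to 0.103), and that on KREMEN2 in libraries 4 to 6 alone (edgeR adjusted p = 0.0994). The count of 11 became 23 with the set of numbers as a term, 21 in libraries 4 to 6 alone and 23 with the number as a replicate block. ROR1 is the closest relative of ROR2 and was named for that after its values were seen. In CF cells it had 14.9 ± 1.79 CPM in high and 18.8 ± 2.64 CPM in normal glucose (log2 fold change -0.33 ± 0.094 SE). This is given without a test, as the members are in this contrast. In WT cells ROR1 had 10.6 ± 1.31 CPM in high and 11.0 ± 0.723 CPM in normal glucose (log2 fold change -0.05 ± 0.10 SE, adjusted p = 0.89 by edgeR).

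In WT cells, 3 of the 90 list members rose with high glucose (1.49% of all genes) and 3 fell (1.46% of all genes), with a median log2 fold change of 0.00251. The ligands WNT6 and WNT9A fell (log2 fold change -0.67 ± 0.12 and -0.43 ± 0.080 SE), as did the relay protein DVL2 (-0.22 ± 0.056 SE). The receptor FZD4 (0.61 ± 0.14 SE), SFRP1 (0.39 ± 0.096 SE) and WLS, which carries Wnt ligands to the cell surface (0.47 ± 0.13 SE), rose. WNT9A had 21.1 ± 1.39 CPM in high glucose (SD, n = 5) and 28.5 ± 2.65 CPM in normal glucose (SD, n = 6), with no overlap. The count of 6 became 3 without WT high glucose library 3, WT normal glucose library 4 or WT normal glucose library 6, and 13 with the set of numbers as a term, 10 in libraries 4 to 6 alone and 11 with the number as a replicate block. The call on WLS was lost without any of 9 of the 11 WT libraries, that on DVL2 without 6 of them and that on SFRP1 without 5 of them. The call on WNT6 was lost in libraries 1 to 3 alone (edgeR adjusted p = 0.0893).

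The difference between the glucose responses of the lines passed for 1 of the 90, APCDD1, against 0.0367% of all genes. It contains the glucose contrast of CF cells known when the list was drawn up, so nothing is read from this count. APCDD1 had 54.8 ± 2.73 CPM in high and 40.5 ± 2.11 CPM in normal glucose in CF cells (SD, n = 6 each), and 98.6 ± 7.67 CPM in high (n = 5) and 101 ± 4.56 CPM in normal glucose (n = 6) in WT cells. The difference was 0.47 ± 0.079 (SE) on the log2 scale (adjusted p = 0.0176 by edgeR). It missed the threshold when CF high glucose library 2 or 5, WT high glucose library 2 or 3, CF normal glucose library 4, 5 or 6, or WT normal glucose library 3 was left out (edgeR adjusted p from 0.0506 to 0.0597), in libraries 1 to 3 alone (edgeR adjusted p = 0.321) and without the low-count filter (edgeR adjusted p = 0.056). The count of 1 became 5 with the set of numbers as a term, 4 in libraries 4 to 6 alone, 3 with DESeq2, 3 without CF normal glucose library 3 and 2 with the number as a replicate block.

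**Figure D4:**
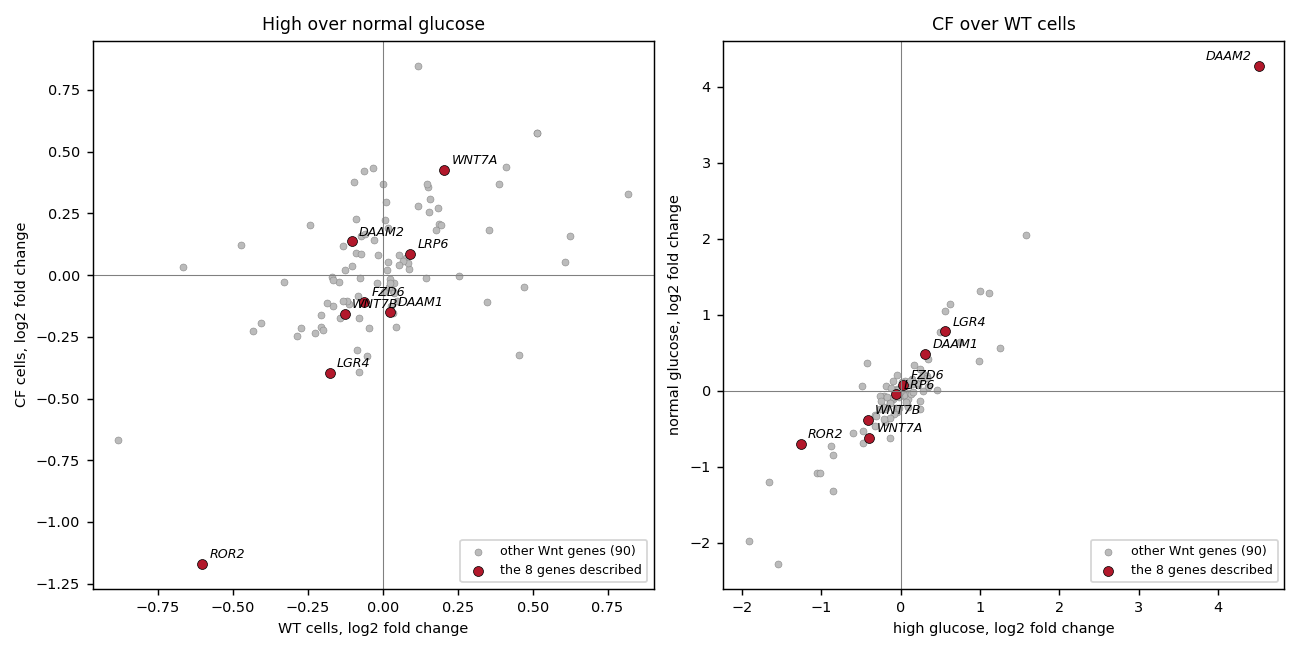
Log2 fold changes of 90 other Wnt pathway genes (grey) and the 8 tested genes described above (red, labelled): left, high over normal glucose in WT cells (x axis) and CF cells (y axis); right, CF over WT cells in high glucose (x axis) and normal glucose (y axis). ROR2 lies at -0.60 and -1.17 in the left panel, and DAAM2 at 4.52 and 4.28 in the right panel, which share libraries between their axes.

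In normal glucose, 10 of the 90 list members were higher in CF than in WT cells (11.4% of all genes) and 20 were lower (13% of all genes). In high glucose, 13 were higher (9.35% of all genes) and 15 were lower (10.6% of all genes). The medians of the log2 fold changes were -0.0446 and -0.0275. The Dishevelled antagonist NKD2 was higher in CF cells in both media (log2 fold change 2.04 ± 0.23 SE in normal and 1.58 ± 0.23 SE in high glucose), and so was WLS in normal glucose (1.15 ± 0.12 SE). The inhibitor DKK1 was lower, at 3.88 ± 0.933 CPM in CF and 12.3 ± 2.62 CPM in WT cells in high glucose and at 4.23 ± 1.21 CPM in CF and 9.71 ± 2.33 CPM in WT cells in normal glucose (SD). LGR6, a relative of LGR4, was lower in CF cells in both media (log2 fold change -1.98 ± 0.32 SE in normal and -1.91 ± 0.29 SE in high glucose), where LGR4 was higher. CF libraries held only 1 to 8 counts of LGR6 in normal and 3 to 11 in high glucose. LGR6 passed the low-count filter through the WT libraries, where it is high, so nothing is read from its place among the genes counted as lower. In normal glucose the ligand WNT11 was higher (1.31 ± 0.23 SE) and APCDD1 lower (-1.32 ± 0.055 SE). In high glucose WNT6 was higher (1.26 ± 0.12 SE) while the ligand WNT5B (-1.05 ± 0.18 SE) and the transcription factor NFATC1 (-1.02 ± 0.14 SE) were lower. ROR1 was higher in CF than in WT cells in normal glucose (log2 fold change 0.77 ± 0.096 SE) and in high glucose (0.49 ± 0.10 SE), whereas ROR2 was lower in both. The ROR1 values are given without a test, because it was named after they were seen.

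For polarized against not polarized WT cells, 27 of 89 list members were higher (26% of all genes) and 26 were lower (23.9% of all genes), and their median log2 fold change was -0.0395. WNT4 was higher, with 64.1 ± 8.54 CPM in polarized (SD, n = 6) and 21.2 ± 0.721 CPM in not polarized cells (SD, n = 3), as were WNT6 (log2 fold change 1.59 ± 0.19 SE) and the transcription factor NFATC4 (1.64 ± 0.13 SE). DKK1 was lower, with 9.71 ± 2.33 CPM in polarized and 30.4 ± 2.20 CPM in not polarized cells, as were WLS (log2 fold change -1.82 ± 0.12 SE) and TNFRSF19 (-2.16 ± 0.20 SE), a receptor of the TNF family that is also a Wnt target.

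The genes whose level followed ROR2 most closely across the 26 libraries, among 14183 genes compared in log2 CPM, were KCNMA1 (Pearson r = 0.942), ZNF395 (0.934), HTR7 (0.904), BNIP3L (0.903) and MYBL2 (0.881). The libraries share their groups and sets of numbers, so these values describe likeness of pattern only. ZNF395, the transcription factor second in this order, averaged 77.8 ± 9.31 CPM in CF cells in high glucose, 111 ± 9.02 CPM in CF cells in normal glucose, 114 ± 7.29 CPM in WT cells in high glucose, 147 ± 8.47 CPM in WT cells in normal glucose and 101 ± 2.91 CPM in not polarized WT cells. KCNMA1, a calcium-activated potassium channel, averaged 70.9 ± 4.47, 90.3 ± 4.97, 93.6 ± 8.39, 109 ± 4.11 and 82.4 ± 2.98 CPM in the same order of groups. Both were lowest in CF cells in high glucose and highest in WT cells in normal glucose, as ROR2 was.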

How the data were processed

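The authors aligned reads with HISAT2 to hg38, per the submitters' processing notes. The counter, its strand setting and the HISAT2 version were not given in the sources used. The authors deposited raw counts and FPKM values for each gene. All 58735 gene identifiers and positions matched GENCODE 29. Low-count genes were removed from the raw counts with filterByExpr (10 counts at the least, 15 in total), libraries were scaled by TMM, and robust quasi-likelihood F tests were run in edgeR 4.0.16 under R 4.3.3. P-values were adjusted by Benjamini-Hochberg over all genes tested and called under 0.05. The 23 glucose libraries shared 1 fit (16338 genes, 19 residual degrees of freedom), and polarized and not polarized WT libraries had their own (16105 genes). FPKM were used for levels per length and as an alternative with limma 3.58.1. Other alternatives were DESeq2 1.42.0, other filters, a term for library numbers 1 to 3 against 4 to 6, each set alone, a block for the number, and each library left out.

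The members and the lists were chosen with earlier results of these data known. Besides the members, the text names, per comparison, up to 6 called list genes with the largest changes and a mean of at least 1 CPM, and the 5 genes most correlated with ROR2. Same-numbered libraries deviated only slightly more alike than others of their set with glucose (mean r 0.261 against 0.241 in CF cells, lowest pair 0.0741, and 0.236 against 0.225 in WT cells). Between the lines they did not (0.159 against 0.165 in normal and 0.228 against 0.23 in high glucose). The numbers were not taken as pairs. No 2 libraries agreed within sampling noise.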

Additional observations from a re-analysis of the deposited data

Results flagged for a closer look

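WNT7B in WT normal glucose library 3, at 102 CPM, stood apart from the other 5 libraries of its group: its gap to the nearest of them was past Dixon's critical value. AXIN2 in WT high glucose library 3 stood apart at 0.0547 CPM, which is 1 count where the other 4 libraries had 0. Chance flags about 1 in 20 groups, and 38 groups were examined. The glucose response of APCDD1 differed between the lines by a log2 value of 0.467, CF minus WT, in the test of the difference itself. APCDD1 carries the limit given above for its list.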

How the results depend on the processing

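ROR2 kept its direction and its call in WT cells (log2 fold change -0.709 to -0.518), between the lines in normal glucose and with polarization under every alternative run. Counts of genes called moved most with the library sets. For high glucose in CF cells 1374 became 891 without the low-count filter, 2811 with a term for the sets, 2328 in libraries 4 to 6 alone and 2561 with a replicate block (1065 to 1597 leaving out each library). In WT cells 482 became 809 with DESeq2, 319 without the filter, 1418 with the set term, 823 in libraries 4 to 6 alone and 1092 with the block (281 to 465, lowest without high glucose library 3, and 309 without normal glucose library 6). For the difference between the responses 6 became 67 with DESeq2, 146 with the set term, 1 in libraries 1 to 3 alone, 387 in libraries 4 to 6 alone and 73 with the block (0 to 19). For CF against WT in high glucose 3253 became 4973 with the set term. The replicate block lost the WNT7A call with polarization (adjusted p = 0.261) and added LGR4 in WT cells (0.037). Signs turned only at small values: FZD6 in the response difference (0.00122 with the set term, 0.0489 in libraries 4 to 6, 0.00381 with the block, -0.127 to 0.00659 leaving out each library), between lines in normal glucose (-0.0216 in libraries 4 to 6), in high glucose (-0.0208 to 0.0881) and with glucose in WT cells (-0.11 to 0.00916); LRP6 in the response difference (0.000501 without the filter, -0.0497 to 0.018); DAAM1 with glucose in WT cells (-0.0236 in libraries 1 to 3); WNT7B in the response difference (0.0696 in libraries 1 to 3); and DAAM2 in libraries 4 to 6 (-0.0997 with glucose in CF, 0.0196 in WT cells, -0.119 in the difference), and -0.345 to 0.113 in WT cells leaving out each library. The cause was not tested. Depth limits WNT5A, AXIN2 and DAAM2 in WT cells.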
